A study of Homo sapiens with 12 samples.

Results

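Genes of TNF, TRAIL and death receptor signaling were examined in THP-1 and U-937 cells, a pair of established human acute myeloid leukemia lines of monocytic origin. With earlier results of these data known, the 10 members were chosen by gene symbol out of 36866 genes in the deposited table. They are the ligands TNF and TNFSF10, the receptors TNFRSF10A, TNFRSF10B, TNFRSF1A, TNFRSF1B and FAS, the adaptor FADD, the protease CASP8 and the inhibitor CFLAR. Each line received either 0.1% DMSO, the vehicle, or honokiol, a natural product of magnolia bark, for 24 h. There were 3 libraries for each line and treatment, 12 in all, and the labels give a complex karyotype for both lines. The treatment protocol names 20 and 35 μM honokiol without saying which line, or which library, received which dose, so the dose behind each library is not known. The cell-cycle assay of the study used the lower of these doses for THP-1 and the higher for U-937, and if the sequenced cells were treated likewise, dose and line cannot be told apart in a comparison of the responses. The labels do not say whether replicates were separate cultures, so p-values measure only the spread between these libraries, which may be technical.

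TNF, which binds the receptors encoded by TNFRSF1A and TNFRSF1B, is a cytokine that monocytic cells make in large amounts, and its main output is NF-kB driven transcription. TRAIL, encoded by TNFSF10, and the Fas ligand bind receptors with a cytoplasmic death domain, which recruit FADD and then caspase-8, and active caspase-8 starts apoptosis. The caspase-8 homologue cFLIP, encoded by CFLAR, enters the same complex and limits caspase-8 activation.

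Levels are given as FPKM, a fragment count corrected for transcript length and for the size of the library, which allows genes to be compared per length. Fold changes come from the estimated counts with edgeR's quasi-likelihood test, and are given on the log2 scale. To pass, a gene needed an absolute log2 fold change over 1 besides an adjusted p-value under 0.05. The adjustment ran over all genes of a comparison whose FPKM reached 0.5 in no fewer than 3 libraries. Totals ranged from 57406966 to 75065752 estimated counts per library, which would be about 14351742 to 18766438 fragments if each were worth 4 counts. DMSO replicate 1 stood apart in both lines, as mitochondrially encoded genes held 13.7% (THP-1) and 12.6% (U-937) of its counts and between 5.61% and 7.55% elsewhere. By the median of each group, all 10 myeloid markers examined were over the FPKM limit in THP-1 and 9 of 10 in U-937. MPO, a granule enzyme, was the exception in U-937. Of the markers of other cell types, 1 of 4 for T cells (CD8A), both of the B cell markers listed in the table and 1 of 3 epithelial markers passed the limit in DMSO-treated THP-1, and the B cell markers alone did so in U-937. In honokiol-treated THP-1, 1 of 3 natural killer markers (GNLY, median 0.54) passed as well. The summed FPKM of the markers of other cell types stayed at or below 3.38 per list in every library, beside 493 to 901 for the myeloid list.

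**Figure D1:**
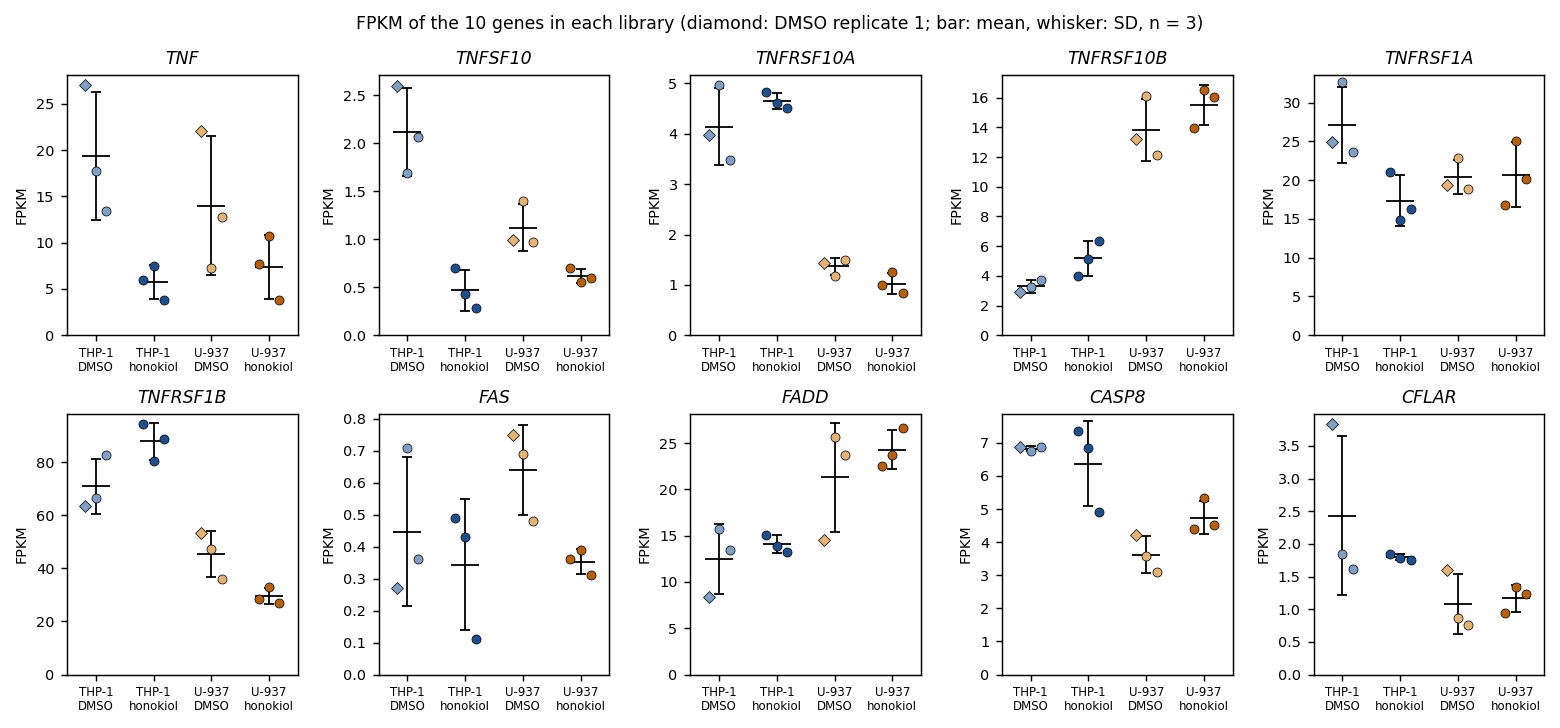
FPKM of the 10 members in each of the 12 libraries, 1 panel per gene, with the mean as a bar and the SD as a whisker (n = 3 per group) and DMSO replicate 1 as a diamond. TNF and TNFSF10 are highest in DMSO-treated THP-1, TNFRSF10B is higher in U-937 than in THP-1, and FAS is below 1 FPKM everywhere.

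The promoters of the ligand genes are shown because TNF and TNFSF10 had the largest honokiol differences among the members tested in each line. Each line holds the 250 bases before the RefSeq start site on GRCh38.p14, 5′ to 3′ on the gene's strand, and capitals mark matches to the motifs searched on both strands. TNF (chr6:31575315-31575564, plus strand) and TNFSF10 (chr3:172523431-172523680, minus strand) were among the 8 of 10 members with an entry.
TNF: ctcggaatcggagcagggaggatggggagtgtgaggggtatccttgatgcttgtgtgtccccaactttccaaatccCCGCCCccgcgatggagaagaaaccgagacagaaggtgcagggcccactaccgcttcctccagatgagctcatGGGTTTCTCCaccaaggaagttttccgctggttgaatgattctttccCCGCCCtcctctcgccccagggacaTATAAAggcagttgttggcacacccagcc
TNFSF10: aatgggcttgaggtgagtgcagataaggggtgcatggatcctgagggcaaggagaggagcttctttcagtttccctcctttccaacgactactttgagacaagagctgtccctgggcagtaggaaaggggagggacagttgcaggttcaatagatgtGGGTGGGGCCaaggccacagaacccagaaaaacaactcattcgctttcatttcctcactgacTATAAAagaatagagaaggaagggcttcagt
Both promoters held 1 match to an NF-kB site (GGGNNNNNCC), which began 101 bases before the start in TNF and 93 in TNFSF10, and 54.4% of 35114 promoters of this length held at least 1. Both also held a TATA box (TATAAA), at 29 bases in TNF and 31 in TNFSF10, present in 10.7% of promoters. TNF had matches to a GC box (GGGCGG) at 174 and 54 bases and TNFSF10 had none, with 42.6% of promoters holding this motif. No match to an AP-1 site (TGANTCA, held by 6.57% of promoters) lay in either window. The same was so of a FOXO site (TAAACAA, 3.46%). An interferon-gamma-activated site (TTCNNNGAA, 6.57%) was not matched either. These matches are a description of letters and not of binding. The TNF start matches the start of the gene in the deposited table, whereas the table's TNFSF10 begins 45 bases upstream of the RefSeq start.

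The question of the first comparison was how the members stood after 24 h of honokiol in each line. Of 9 members tested in THP-1, 0 passed the test, and 6 of 14600 genes did (0.0411%). Of 9 tested in U-937, 0 passed, and 13 of 13726 genes did (0.0947%). By other tools, DESeq2 called 2 members in THP-1 (TNF and TNFSF10) and 0 in U-937, and limma called 0 in each. DESeq2 called 1.71% of 14600 genes in THP-1 and 1.62% of 13726 in U-937. Both ligands had lower means with honokiol in both lines, with the larger estimates in THP-1. At an unadjusted p under 0.05, 1 member was higher and 3 were lower in THP-1, where 6.84% of all genes tested were higher and 6.22% lower by this rule. In U-937, 0 members were higher and 2 lower, beside 8.25% and 8.44% of genes. The FPKM groups did not overlap for 1 higher and 3 lower members in THP-1, beside 13% and 7.62% of genes, and for 1 higher and 2 lower in U-937, beside 16.7% and 7.5%, with FAS, which was not tested, left out. The median log2 fold change of the members tested in THP-1 was -0.16, against -0.0011 over all genes, and in U-937 -0.07, against 0.02.

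TNF (ENSG00000232810, chr6:31575565-31578336 on GRCh38) overlaps no other annotated gene. Its FPKM in DMSO-treated THP-1 was 27.01, 17.76 and 13.46 in replicates 1 to 3, and 5.93, 7.46 and 3.78 with honokiol. Every honokiol library was below every DMSO library, with means of 5.72 ± 1.85 against 19.4 ± 6.92 (SD, n = 3). The log2 fold change of TNF was -1.84 (SE 0.35, 95% interval -2.65 to -1.02, adjusted p = 0.136, edgeR's quasi-likelihood test), a 3.57-fold lower estimate that ranked 90 of 14600 genes by p. DESeq2 gave -1.85 with an adjusted p of 3.97e-05, and the adjusted p-values over all alternatives ran from 3.97e-05 to 0.511. In the bulk libraries, fewer cells of a kind and less RNA per cell cannot be told apart.

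In U-937, TNF stood at 22.05, 7.24 and 12.76 with DMSO and at 7.72, 10.69 and 3.78 with honokiol. The groups overlapped, since DMSO replicate 2 was below 2 of the honokiol libraries. The log2 fold change was -1.04 (SE 0.48, 95% interval -2.14 to 0.06, adjusted p = 0.326, edgeR's quasi-likelihood test). DMSO replicate 1, the library with the high mitochondrial share, had the highest TNF level of each line, at 1.91 times the CPM mean of the other DMSO libraries in THP-1 and 2.36 times in U-937. Ratios of at least 1.5 in both lines were seen for 459 of 16283 genes (2.82%). Without that library the log2 fold change was -1.46 (adjusted p = 0.209) in THP-1 and -0.50 (adjusted p = 0.607) in U-937 by edgeR, so that the U-937 estimate moved by over 1.5 times. The difference of the TNF response, U-937 minus THP-1, was 0.79 (SE 0.66, 95% interval -0.65 to 2.23, adjusted p = 0.771 by edgeR), so a difference between the lines was not shown.

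TNFSF10 (ENSG00000121858, chr3:172505508-172523475) encodes TRAIL, the ligand of the receptors DR4 and DR5. Its level in DMSO-treated THP-1 was 2.60, 1.69 and 2.07 FPKM, and with honokiol 0.70, 0.43 and 0.28. All 3 honokiol libraries were lower than all 3 DMSO libraries. Honokiol replicates 2 and 3 were themselves under the FPKM limit, which all 3 DMSO libraries reached. The honokiol libraries held 77 to 215 estimated counts, so the size of the fold rests on low values. The log2 fold change was -2.23 (SE 0.39, 95% interval -3.13 to -1.33, adjusted p = 0.118, edgeR's quasi-likelihood test), a 4.70-fold lower estimate that ranked 55 of 14600. Outside of the fits that left out a library, the estimate ran from -2.29 to -1.09, the smallest with limma on log2(FPKM + 1). TNFSF10 passed with DESeq2 (adjusted p = 2.44e-06) and with edgeR when all 12 libraries shared a fit (adjusted p = 0.0325), and over all alternatives its adjusted p ranged from 2.44e-06 to 0.406.

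In U-937, TNFSF10 measured 0.99, 1.40 and 0.97 FPKM with DMSO and 0.70, 0.55 and 0.60 with honokiol. These groups did not overlap either, although the gap from 0.97 to 0.70 was small beside the range within the DMSO group. The log2 fold change was -0.95 (SE 0.27, 95% interval -1.57 to -0.32, adjusted p = 0.163, edgeR's quasi-likelihood test). Over all alternatives the adjusted p of TNFSF10 in U-937 ranged from 0.0258 to 0.420. For TNFSF10 the difference of the lines' responses was 1.27 (SE 0.49, 95% interval 0.20 to 2.35), with an unadjusted p of 0.0242 and an adjusted p of 0.447 by edgeR. Across the 4 groups, TNFSF10 was ordered DMSO-treated THP-1, DMSO-treated U-937, honokiol-treated U-937 and honokiol-treated THP-1, and only the last neighbours overlapped. TNF had the same order of means, with overlap between all neighbours. TNFSF10 overlaps an antisense transcript, and strand use in the counting is not given in the sources used here, so reads of the overlap cannot be told apart.

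**Figure D2:**
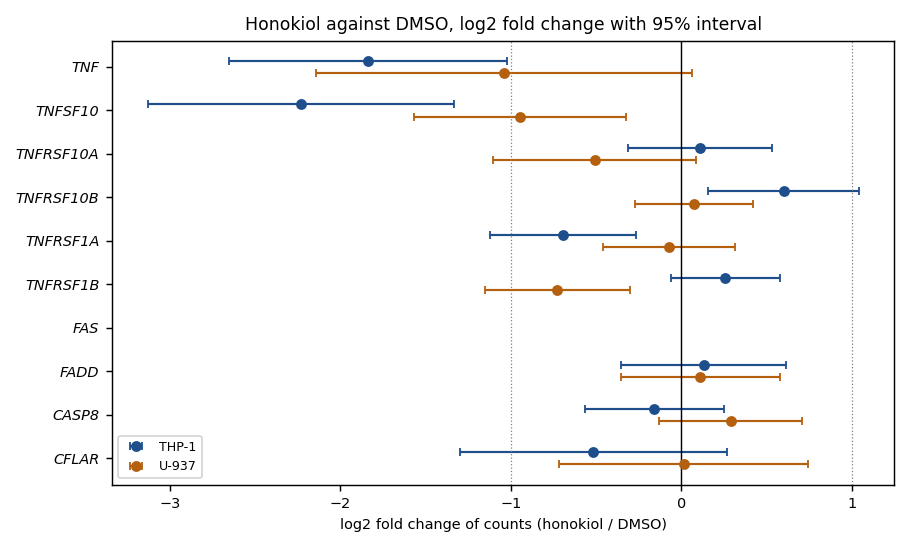
log2 fold change of estimated counts, honokiol against DMSO, for the members tested, with THP-1 and U-937 side by side and 95% intervals from edgeR (n = 3 against 3) and dotted lines at -1 and 1. The TNF and TNFSF10 estimates are the lowest in both lines, TNFRSF1B lies on opposite sides of 0 in the lines, and FAS has no estimate because it was under the FPKM limit.

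The genes most like the ligands were sought by the pattern of the 4 group means of log2(FPKM + 0.5), centred per gene, over 16282 other genes. CXCR3, a chemokine receptor, was nearest to both, with a root mean square difference of 0.133 on the log2 scale from TNF and 0.108 from TNFSF10. Its mean FPKM was 1.21 ± 0.108 in DMSO-treated THP-1, 0.163 ± 0.144 with honokiol, 0.880 ± 0.656 in DMSO-treated U-937 and 0.373 ± 0.363 with honokiol (SD, n = 3). In honokiol-treated THP-1 all libraries of CXCR3 were under the FPKM limit, with 46, 34 and 0 estimated counts. The 0.5 added before the logarithm shrinks differences at such low values, so the closeness of CXCR3 depends on it. TNFSF10 itself was the next nearest gene to TNF, at 0.149, followed by GPR141, an orphan receptor gene, at 0.183. After CXCR3, the nearest to TNFSF10 were RPS26P6 at 0.131, a ribosomal protein pseudogene whose reads may belong to its parent gene, and AC120057 at 0.148. AC120057 is near the floor, with only 0 to 17 estimated counts per library. The likeness covers 4 group means and is a description.

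Among the TRAIL receptors, TNFRSF10A (ENSG00000104689, chr8:23190452-23225102) encodes DR4 and TNFRSF10B (ENSG00000120889, chr8:23020133-23069031) encodes DR5, both with a death domain. In THP-1 TNFRSF10B measured 2.89, 3.26 and 3.71 FPKM with DMSO and 4.02, 5.15 and 6.37 with honokiol. The honokiol libraries were all above the DMSO libraries. The log2 fold change was 0.60 (SE 0.19, adjusted p = 0.285, edgeR's quasi-likelihood test), so TNFRSF10B did not pass. In U-937 it measured 13.25, 16.13 and 12.12 with DMSO and 13.96, 16.50 and 16.06 with honokiol, with overlapping groups and a log2 fold change of 0.07 (SE 0.15, 95% interval -0.27 to 0.42).

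TNFRSF10A measured 3.98, 4.97 and 3.48 FPKM in DMSO-treated THP-1 and 4.83, 4.61 and 4.52 with honokiol. In U-937 it measured 1.44, 1.18 and 1.49 with DMSO and 0.99, 1.25 and 0.83 with honokiol. The treatments overlapped in both lines. The log2 fold changes of TNFRSF10A were 0.11 (SE 0.18, 95% interval -0.31 to 0.53) and -0.51 (SE 0.26, 95% interval -1.10 to 0.09). Both TRAIL receptor genes have antisense neighbours, TNFRSF10A-AS1 for TNFRSF10A and RHOBTB2 for TNFRSF10B, whose reads cannot be told apart where they overlap.

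TNFRSF1A (ENSG00000067182, chr12:6328757-6342114) encodes the TNF receptor that carries a death domain and is found on most cell types. Its FPKM in THP-1 was 24.97, 32.69 and 23.66 with DMSO and 21.04, 14.84 and 16.24 with honokiol. The honokiol libraries were all lower, and the log2 fold change was -0.69 (SE 0.18, adjusted p = 0.227, edgeR's quasi-likelihood test). DESeq2 gave -0.70 with an adjusted p of 0.0414, at a fold under the limit. U-937 cells had 19.40, 22.85 and 18.92 with DMSO and 16.74, 25.11 and 20.21 with honokiol. There the honokiol range enclosed the DMSO range, and the log2 fold change was -0.07 (SE 0.17, 95% interval -0.46 to 0.31).

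TNFRSF1B (ENSG00000028137, chr1:12166991-12209220) encodes the TNF receptor without a death domain, which is typical of leukocytes, and it was the most abundant member per length in all 4 groups. In THP-1 it measured 63.29, 66.53 and 82.66 FPKM with DMSO and 94.24, 80.46 and 88.66 with honokiol. The groups overlapped in THP-1 through DMSO replicate 3, and the log2 fold change was 0.26 (SE 0.14, adjusted p = 0.453, edgeR's quasi-likelihood test). U-937 cells had 53.24, 47.13 and 35.99 with DMSO and 28.53, 32.87 and 26.94 with honokiol. All honokiol libraries of U-937 were lower, with a log2 fold change of -0.73 (SE 0.19, adjusted p = 0.144, edgeR's quasi-likelihood test). Over all alternatives the adjusted p of TNFRSF1B in U-937 ranged from 0.0186 to 0.399, with the fold under the limit throughout.

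The responses of TNFRSF1B in the lines were set against each other directly. Of the 10 members tested for this difference, 0 passed an adjusted p of 0.05, which 18 of 16283 genes did (0.111%), while 4 members were past an unadjusted p of 0.05, beside 9.37% of all genes. TNFRSF1B had the smallest p of the members, 0.0013, rank 94 of 16283, with a difference of -0.99 (SE 0.24, 95% interval -1.51 to -0.48, adjusted p = 0.224, edgeR's quasi-likelihood test). DESeq2 called it, at -1.01 with an adjusted p of 0.0178, beside 1.5% of all genes that DESeq2 called for this difference. The other 3 were TNFSF10 (above), TNFRSF1A at 0.61 (adjusted p = 0.505 by edgeR) and TNFRSF10B at -0.54 (adjusted p = 0.530 by edgeR).

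Since the estimates of the TNF receptor genes had opposite signs in THP-1, their ratio within each library was computed, a choice made after the values were seen and given as a description. The FPKM ratio of TNFRSF1B to TNFRSF1A in THP-1 was 2.53, 2.04 and 3.49 with DMSO and 4.48, 5.42 and 5.46 with honokiol, or 2.69 ± 0.741 against 5.12 ± 0.555 (SD, n = 3). In U-937 it was 2.74, 2.06 and 1.90 with DMSO and 1.70, 1.31 and 1.33 with honokiol, or 2.24 ± 0.447 against 1.45 ± 0.222. The treatments did not overlap in either line, and the ratio was higher with honokiol in THP-1 and lower in U-937. The ratio of TNFRSF10B to TNFRSF10A was 0.816 ± 0.219 in DMSO-treated THP-1 and 1.12 ± 0.289 with honokiol, and 10.3 ± 2.94 and 15.6 ± 3.32 in U-937, with overlap between treatments in both lines.

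**Figure D3:**
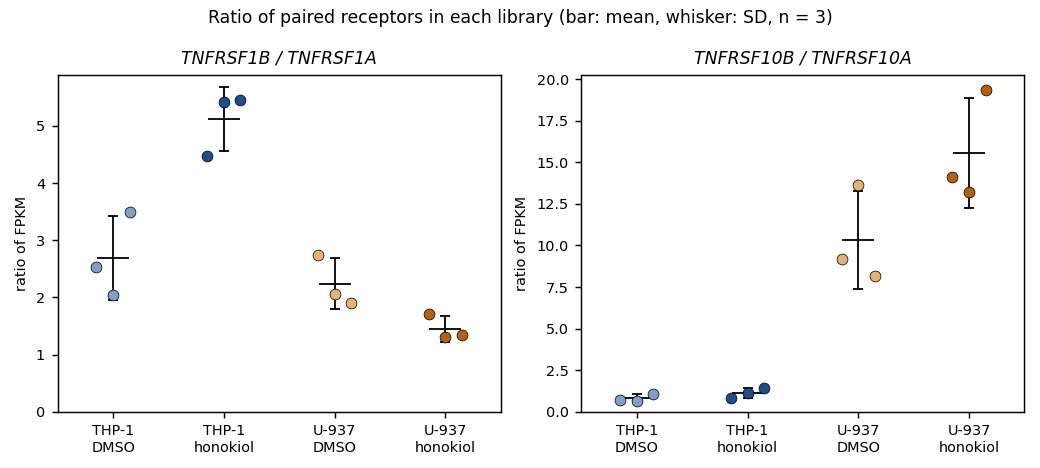
Ratio of FPKM of TNFRSF1B to TNFRSF1A (left) and of TNFRSF10B to TNFRSF10A (right) in each library, with the mean as a bar and the SD as a whisker (n = 3 per group). The left ratio is above 4 in honokiol-treated THP-1 and below 2 in honokiol-treated U-937, and the right ratio is at or below 1.41 in THP-1 and at or above 8.13 in U-937.

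FAS (ENSG00000026103, chr10:88990531-89017059), the receptor of the Fas ligand, was near the detection limit. Its FPKM in THP-1 was 0.27, 0.71 and 0.36 with DMSO and 0.49, 0.43 and 0.11 with honokiol, and in U-937 0.75, 0.69 and 0.48 with DMSO and 0.36, 0.39 and 0.31 with honokiol. The groups overlapped in THP-1, whereas all honokiol libraries of U-937 were lower. FAS was under the limit for the honokiol tests of both lines, and with no limit the log2 fold changes were -0.40 (SE 0.57, adjusted p = 0.815) in THP-1 and -0.97 (SE 0.30, adjusted p = 0.351) in U-937 by edgeR. These rest on 50 to 324 estimated counts per library, and FAS overlaps ACTA2 on the opposite strand. FASLG, which encodes the Fas ligand, was not analysed here.

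FADD (ENSG00000168040, chr11:70203296-70207390), the adaptor between death receptors and caspase-8, measured 8.34, 15.77 and 13.41 FPKM in DMSO-treated THP-1 and 15.10, 13.88 and 13.27 with honokiol. In U-937 it measured 14.53, 25.65 and 23.66 with DMSO and 22.52, 23.66 and 26.60 with honokiol. DMSO replicate 1 was the lowest library of each line, and the treatments overlapped. That library stood at 0.632 and 0.624 times the CPM mean of the other DMSO libraries in THP-1 and U-937, and 5.20% of genes were at or below 1/1.5 in both lines. The log2 fold changes of FADD were 0.13 (SE 0.21, 95% interval -0.35 to 0.61) in THP-1 and 0.11 (SE 0.20, 95% interval -0.36 to 0.58) in U-937, and without DMSO replicate 1 they were -0.06 and -0.09.

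CASP8 (ENSG00000064012, chr2:201233443-201287711), the initiator protease, measured 6.87, 6.75 and 6.86 FPKM in DMSO-treated THP-1 and 7.35, 6.83 and 4.92 with honokiol. The DMSO libraries were close together and inside the honokiol range, with a log2 fold change of -0.16 (SE 0.18, 95% interval -0.56 to 0.25). In U-937 CASP8 measured 4.21, 3.57 and 3.09 with DMSO and 4.39, 5.33 and 4.51 with honokiol. These did not overlap, and the log2 fold change of 0.29 (SE 0.18, adjusted p = 0.461, edgeR's quasi-likelihood test) did not pass.

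CFLAR (ENSG00000003402, chr2:201116154-201176687) lies on the same chromosome as CASP8 and encodes cFLIP. It measured 3.83, 1.84 and 1.62 FPKM in DMSO-treated THP-1 and 1.85, 1.79 and 1.76 with honokiol, and in U-937 1.60, 0.86 and 0.76 with DMSO and 0.94, 1.34 and 1.23 with honokiol. DMSO replicate 1 was again the highest library in each line, at 2.44 and 2.09 times the CPM mean of the other DMSO libraries. The log2 fold changes of CFLAR were -0.52 (SE 0.34, 95% interval -1.30 to 0.27) in THP-1 and 0.01 (SE 0.32, 95% interval -0.71 to 0.74) in U-937. Without DMSO replicate 1 they were 0.05 and 0.46, so the sign in THP-1 rests on that library. CFLAR overlaps RNU7-45P on its own strand and CFLAR-AS1 on the other.

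The second comparison asked how the levels under the vehicle differ between the lines, DMSO-treated U-937 against DMSO-treated THP-1. Of 10 members tested, 3 passed, 1 higher and 2 lower in U-937, beside 32.4% of 14617 genes (13.9% higher and 18.4% lower), so the share of members is close to that of all genes. An adjusted p under 0.05 without the fold limit was reached by 6 members and 47.3% of genes. The groups did not overlap for 1 higher and 6 lower members, beside 28.9% and 28.8% of genes, and the median log2 fold change was -0.60 against -0.04 over all genes. Line is confounded with whatever else differed between the cultures, and these cannot be told apart.

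TNFRSF10B was higher in U-937, at 13.8 ± 2.07 against 3.29 ± 0.411 FPKM (SD, n = 3), with a log2 fold change of 2.02 (SE 0.18, adjusted p = 5.18e-05, edgeR's quasi-likelihood test), or 4.06-fold. TNFRSF10A was lower, at 1.37 ± 0.166 against 4.14 ± 0.758, with a log2 fold change of -1.65 (SE 0.26, adjusted p = 0.0010, edgeR's quasi-likelihood test), or 3.13-fold. The genes of the TRAIL receptors DR4 and DR5 thus differed in opposite directions between the lines, and both kept an adjusted p under 0.05 under all 16 alternatives. CFLAR was lower, at 1.07 ± 0.459 against 2.43 ± 1.22, with a log2 fold change of -1.24 (SE 0.43, adjusted p = 0.0440, edgeR's quasi-likelihood test). The CFLAR call was lost without DMSO replicate 1 of THP-1 (-0.75, adjusted p = 0.125), without replicate 2 or 3 of U-937 (adjusted p = 0.145 and 0.137), with no filter on low genes (adjusted p = 0.0568) and with limma (adjusted p from 0.0601 to 0.0634), and it held without both DMSO replicate 1 libraries (-1.18, adjusted p = 0.0045).

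CASP8 was lower in U-937 at an adjusted p of 0.0035 by edgeR, with a log2 fold change of -0.96 (SE 0.19), just inside the fold limit. TNFSF10 (-0.98, SE 0.31, adjusted p = 0.0296) and TNFRSF1B (-0.68, SE 0.21, adjusted p = 0.0246) were also lower by edgeR at a fold under the limit. TNFSF10 was past 0.05 in 10 of 16 alternatives, and reached an adjusted p of 0.113 without both DMSO replicate 1 libraries. Differences for TNFRSF1A (-0.46, adjusted p = 0.0599), FADD (0.72, adjusted p = 0.0550), TNF (-0.52, adjusted p = 0.359) and FAS (0.48, adjusted p = 0.370) were not past 0.05 by edgeR.

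**Figure D4:**
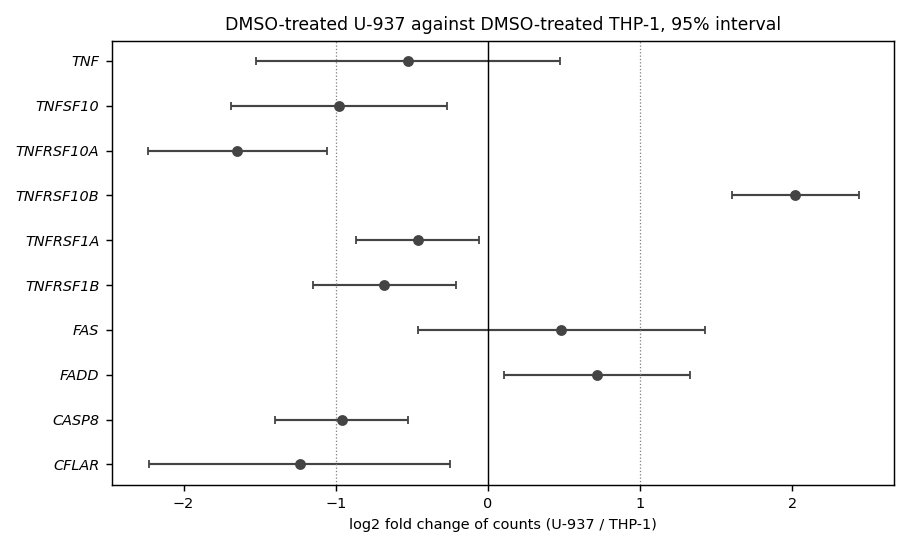
log2 fold change of estimated counts in DMSO-treated U-937 against DMSO-treated THP-1, with 95% intervals from edgeR (n = 3 against 3) and dotted lines at a log2 fold change of -1 and 1. TNFRSF10B is at 2.02, TNFRSF10A at -1.65 and CFLAR at -1.24, and the intervals of TNF and FAS cross 0.

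Other genes of the pathway were counted from 5 lists, and 0 of the genes in them passed in either honokiol comparison by edgeR. DESeq2 called 1 of 60 in THP-1 (TNFRSF21) and 2 of 59 in U-937 (TNFRSF21 and BIRC2), and limma called 0 in each. Over all genes DESeq2 called 1.71% (THP-1) and 1.62% (U-937), so 1 of 60 is close to the share of all genes. In the list of other ligands and receptors, 1 of 11 genes tested was higher and 3 were lower in THP-1 at an unadjusted p under 0.05, and 2 of 9 were higher and 1 lower in U-937. Over all genes tested, 6.84% were higher and 6.22% lower by this rule in THP-1, and 8.25% and 8.44% in U-937, and the counts of the lists that follow stand beside these shares. TNFRSF21, which encodes the death receptor DR6, was the higher gene in THP-1, at 8.84, 8.60 and 8.54 FPKM with DMSO and 14.03, 26.08 and 26.18 with honokiol. In U-937 TNFRSF21 measured 16.42, 21.66 and 15.55 with DMSO and 32.42, 36.40 and 58.11 with honokiol. The treatments did not overlap in either line, and the log2 fold changes were 1.29 (SE 0.24, adjusted p = 0.134) and 1.16 (SE 0.25, adjusted p = 0.0995) by edgeR, and 1.28 (adjusted p = 0.000175) and 1.14 (adjusted p = 0.00134) by DESeq2. TNFSF9, the ligand of the costimulatory receptor 4-1BB, was 8.29, 9.26 and 9.46 in DMSO-treated U-937 and 15.81, 14.94 and 16.29 with honokiol, a log2 fold change of 0.71 (SE 0.14, adjusted p = 0.0897) by edgeR. TNFRSF10D, a TRAIL decoy receptor gene, had a log2 fold change of -0.64 (SE 0.18, adjusted p = 0.232) in THP-1 by edgeR.

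In the list of the receptor complex and its ubiquitin machinery, 0 of 18 genes tested were past the unadjusted p in THP-1, and 2 were higher and 1 lower of 20 in U-937. BIRC2, which encodes the ubiquitin ligase cIAP1, measured 1.42, 2.65 and 3.62 FPKM in DMSO-treated U-937 and 5.28, 5.24 and 6.33 with honokiol, with no overlap and a log2 fold change of 1.06 (SE 0.29, adjusted p = 0.159) by edgeR. Of the 12 downstream caspases and death effectors, 2 were lower in THP-1 and 1 in U-937. MLKL, the effector of necroptosis, was among them in both lines, at a log2 fold change of -0.45 (adjusted p = 0.352) and -0.39 (adjusted p = 0.258) by edgeR.

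Of the genes for shedding of ligands and receptors, 1 of 5 was higher and 1 lower in THP-1, and 0 of 3 were past the unadjusted p in U-937. ADAM17, the protease that releases TNF and its receptors from the cell surface, measured 4.33, 4.32 and 4.14 FPKM in DMSO-treated THP-1 and 5.68, 6.64 and 6.0 with honokiol. Its treatments did not overlap in either line, with log2 fold changes of 0.46 (adjusted p = 0.246) and 0.29 (adjusted p = 0.332) by edgeR. Of the NF-kB target genes that TNF induces, 0 of 14 were higher and 3 lower in THP-1 (NFKB1, CD83 and PTX3), and 0 of 15 were past the unadjusted p in U-937. Their median log2 fold change in THP-1 was 0.08, and in U-937 -0.22, against -0.0011 and 0.02 over all genes.

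Between the DMSO-treated lines, 5 of 10 other ligands and receptors passed the test, 6 of 20 genes of the receptor complex, 2 of 12 effectors, 2 of 5 shedding genes and 7 of 15 NF-kB target genes, beside 32.4% of all genes. The 7 target genes were all higher in U-937, where 13.9% of all genes passed in this direction, and the median log2 fold change of that list was 1.12 against -0.04 over all genes. The list was not uniformly higher. TNFAIP2 was lower in U-937 (log2 fold change -0.61, SE 0.21, adjusted p = 0.0372 by edgeR), at a fold under the limit and without overlap of the groups. NFKBIA, NFKBIE, NFKB1, NFKB2 and RELB had negative estimates, from -0.73 to -0.04, and did not pass. CCL3 and CD83 had positive estimates and did not pass either. Among the 7 genes that passed, CCL2, a monocyte chemokine, had a mean FPKM of 76.5 against 1.84 in THP-1 (log2 fold change 5.29, SE 0.92, adjusted p = 0.0017 by edgeR). The CCL2 libraries spread widely, at 125.67, 79.81 and 24.11 in U-937 and 4.02, 0.70 and 0.80 in THP-1. DMSO replicate 1 was the highest of these in each line. CXCL8, the neutrophil chemokine interleukin-8, had a mean FPKM of 32.3 against 1.31 (log2 fold change 4.57, SE 0.94, adjusted p = 0.0041 by edgeR). TNF itself did not pass in this comparison. TIMP3, the inhibitor of ADAM17, had a mean FPKM of 0.010 in U-937 against 10.6 in THP-1, and was listed at 0 in 2 of 3 DMSO libraries of U-937.

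**Figure D5:**
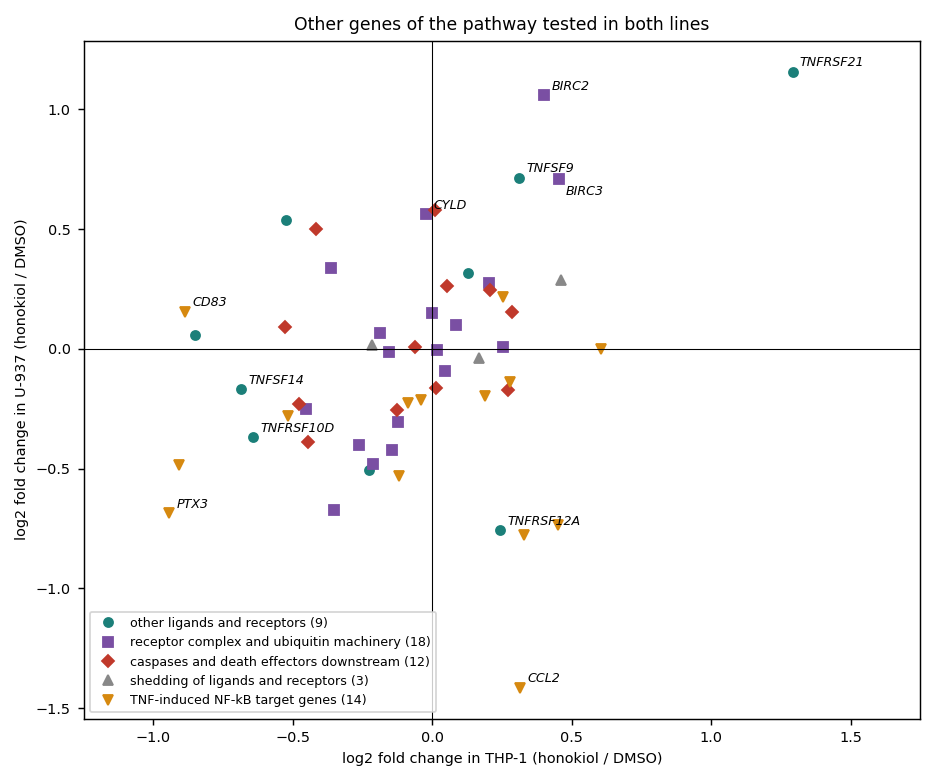
log2 fold change with honokiol in THP-1 (x axis) and in U-937 (y axis) of the 56 genes of the 5 lists tested in both lines, with a symbol for each list. TNFRSF21 lies at 1.29 and 1.16, and CCL2 at the bottom had -1.41 in U-937 (adjusted p = 0.312 by edgeR). By edgeR 0 of these genes passed the test.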

How the data were processed

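Poly(A) mRNA of 12 libraries, 3 per group in 4 groups, was analysed from the table the authors deposited. The authors' estimated counts are whole numbers per gene, and values of 4 (17264) outnumber those of 3 (6764) and 5 (4016), although multiples of 4 make up only 37.3% of the values from 1 to 20. They were tested as deposited and also divided by 4. The authors' FPKM values, deposited with 2 decimals, were scaled by them to the length of the transcript and the size of the library. The submitters' processing notes list HISAT2 2.0, StringTie 1.3.0, Bowtie 0.12.2 and the build mm8, although the gene identifiers are human and the coordinates match GRCh38. The labels and the methods name different instruments, and the series text names a microarray. Annotation and strand use are not given in the sources used here.

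edgeR 4.0.16 (R 4.3.3) ran the quasi-likelihood test on the counts with TMM normalization and Benjamini-Hochberg adjustment, per line, between lines, and for the interaction of line and treatment in all 12 libraries. Genes entered with an FPKM that reached 0.5 in no fewer than 3 libraries. An exact permutation of 3 against 3 cannot go below 0.1 and was not used. limma 3.58.1, DESeq2 1.42.0, RLE size factors, no filter, counts divided by 4, a replicate block, a shared fit and each library left out were alternatives. Leaving out both DMSO replicate 1 libraries was added after their mitochondrial share was seen. The members and lists were chosen with earlier results of these data known. All members, and the list genes that met a size rule or had the smallest p-values of their list, were named, apart from a result not reported here, and the genes named for the lines were picked from their values. Simulated counts were used to check the test.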

Additional observations from a re-analysis of the deposited data

How the results depend on the processing

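Without the mention of a tool, edgeR was used. The number of genes past the criterion in THP-1, 6 in the main analysis, was 0 with no filter, 0 with the replicate block, 0 with limma at each of the pseudocounts 0.5, 0.1 and 1, 33 in the shared fit of 12 libraries, 250 with DESeq2, and 0 to 43 with a library left out. In U-937, 13 genes became 0 with the replicate block, 108 in the shared fit, 223 with DESeq2 and 0 to 6 with a library left out. Genes with a different response, 18, became 0 with the replicate block, 0 with counts divided by 4, 12 with no filter, 244 with DESeq2, 2, 1 and 3 with limma at pseudocounts of 0.5, 0.1 and 1, 7 without both DMSO replicate 1 libraries and 1 to 22 with a library left out. Between the lines, 4730 genes became 3084 with limma at a pseudocount of 1, 2831 without both DMSO replicate 1 libraries and 3341 to 4210 with a library left out. Of the members, 2 passed with DESeq2 and 1 in the shared fit in THP-1, and 1 passed with DESeq2 for the difference, against 0 in the main analysis, and with a library left out 0 passed in any of these. Between the lines 3 members passed in the main analysis, 2 with no filter or limma, 4 without both DMSO replicate 1 libraries and 2 to 5 with a library left out. The replicate numbers were not taken as pairs. To check this, each gene's deviation from its group mean of log2 CPM was correlated between DMSO and honokiol libraries of a line. For libraries of the same number the correlation was -0.107, -0.155 and 0.094 in THP-1, and -0.121, -0.104 and -0.108 in U-937. Under the block 4662 genes and 3 members passed between the lines. Estimates near 0 changed sign: TNFRSF1A in U-937 was 0.0065, 0.0062 and 0.0064 with limma, and the FADD difference 0.013, 0.010 and 0.017. With a library left out, in THP-1 the log2 fold change ran from -0.060 to 0.31 for FADD, -0.76 to 0.048 for CFLAR, -0.020 to 0.23 for TNFRSF10A and -0.28 to 0.0058 for CASP8. In U-937 it ran from -0.088 to 0.26 for FADD, -0.21 to 0.061 for TNFRSF1A, -0.21 to 0.46 for CFLAR and -0.044 to 0.18 for TNFRSF10B. The difference of the lines ran from -0.22 to 0.15 for FADD and -0.047 to 0.98 for CFLAR. The cause of these shifts was not tested. TNF and TNFSF10 kept a negative estimate in both lines under all alternatives, but the size of the TNFSF10 estimate, with no library left out, spanned -2.29 to -1.09 (THP-1) and -0.97 to -0.39 (U-937), the smallest with limma at a pseudocount of 1. FAS was under the limit on low values in the honokiol comparisons.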
